A study of Mus musculus with 9 samples.

Results

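The keratocyte marker genes are 10 genes used here to gauge the cells of the corneal stroma. The 10 are Ptgds, Angptl7, Cd34, Thy1, Vim, Pdgfra, Apod, Htra1, Gsn and Mgp, and not all are limited to resting keratocytes. They were chosen by name, as all probe sets whose only symbol in the platform annotation was one of these genes, which gave 22 probe sets. The probe set of highest mean intensity over all 9 arrays stood for its gene, and any others served as a check. The array held 18193 genes with a probe set of their own symbol, and 10956 of them, including 9 of the 10 markers, were bright enough to be tested. The markers were followed in SJL/J mice (SJL), whose cornea the labels call thick, in C57BLKS/J mice (KS), whose cornea they call thin, and in C57Bl/6J mice (B6), for which they give no thickness. All 9 animals were adult males of 4 months, and each array carried the RNA of 1 mouse, from a 2-mm punch of the central cornea of both eyes. There were 3 mice per strain. Each thickness label belonged to 1 strain, so strain and thickness cannot be told apart.

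Keratocytes are flat, quiet cells of neural crest origin that lie between the collagen lamellae of the stroma and make its collagens and keratan sulfate proteoglycans. After injury they leave this state and become fibroblasts and contractile myofibroblasts. CD34 is carried by resting keratocytes and is lost in culture, whereas THY1 marks activated corneal fibroblasts. Vimentin is the intermediate filament of both states. The remaining markers are secreted proteins, a growth factor receptor and an abundant actin regulator of the cornea.

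The labelled tissue was borne out by its own genes on all 9 arrays. Krt12, the keratin of corneal epithelium, averaged 26604 ± 628 in SJL mice, 26808 ± 388 in KS mice and 28462 ± 777 in B6, and Kera, the stromal proteoglycan keratocan, averaged 11789 ± 447, 11724.5 ± 516 and 12626.5 ± 527 in the same strains (SD, n = 3). Values are the deposited linear intensities of probe sets, which ran from 3.39 to 37501, with 54.6% of them below 16. The scale of a probe set is its own, so levels were compared between strains and not between genes. On KS replicate 3 the summed signal of 11 photoreceptor genes was 5247, against 54.3 to 56.1 in SJL, 59.6 and 59.96 on the other KS arrays and 58.3 to 64.1 in B6. SJL/J mice are known for an inherited loss of photoreceptors, so low photoreceptor signal in SJL does not gauge how much retina was carried over. Signal of the Gapdh controls leaned most to the 3' end on B6 replicate 3, with a 3' minus 5' log2 difference of 1.54 against 0.73 to 1.16 on the other arrays.

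Of the 9 markers tested, Vim, Apod, Htra1 and Mgp differed among the strains and Ptgds, Angptl7, Cd34, Pdgfra and Gsn did not pass the test. The moderated F-test of limma called 4 of the 9, where 19.4% of all genes tested were called. Called here means a Benjamini-Hochberg adjusted p under 0.05 over all probe sets tested. In SJL against KS, Apod was called higher and Vim and Mgp lower, 1 and 2 of 9, where 6.8% of genes were called higher and 8.08% lower. In KS against B6, Htra1 was called higher and Mgp lower, 1 each, where 3.4% of genes were called higher and 2.87% lower. In SJL against B6, Apod and Htra1 were called higher and Vim and Mgp lower, 2 each, where 8.39% of genes were called higher and 7.68% lower. Unadjusted p-values under 0.05 numbered 4, 2 and 4 of 9 in these comparisons. These tallies read Apod from its brighter probe set: when all probe sets of a gene were averaged, Vim, Apod and Mgp were all called lower in SJL against each other strain and 0 markers higher, since Htra1 then lost its call in SJL against B6.

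The 3 arrays of one strain lay wholly apart from those of the other for 5 of 9 markers in SJL against KS, 3 of 9 in KS against B6 and 4 of 9 in SJL against B6. Over all genes tested those shares were 35.5%, 31.1% and 32.8%. The median log2 difference of the markers was -0.17 in SJL against KS, 0.01 in KS against B6, and for SJL against B6 it was -0.12, beside 0.02, 0.01 and 0.02 over all genes tested. With 3 arrays a strain the counts depended on single mice. In SJL against KS, 0 markers were called without KS replicate 1 or KS replicate 3, 1 without SJL replicate 1, SJL replicate 3, KS replicate 2 or B6 replicate 1, and 2 without SJL replicate 2, B6 replicate 2 or B6 replicate 3. In KS against B6, 0 were called without KS replicate 1, KS replicate 3 or any one of the B6 replicates, and 1 without SJL replicate 3 or KS replicate 2.

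**Figure D1:**
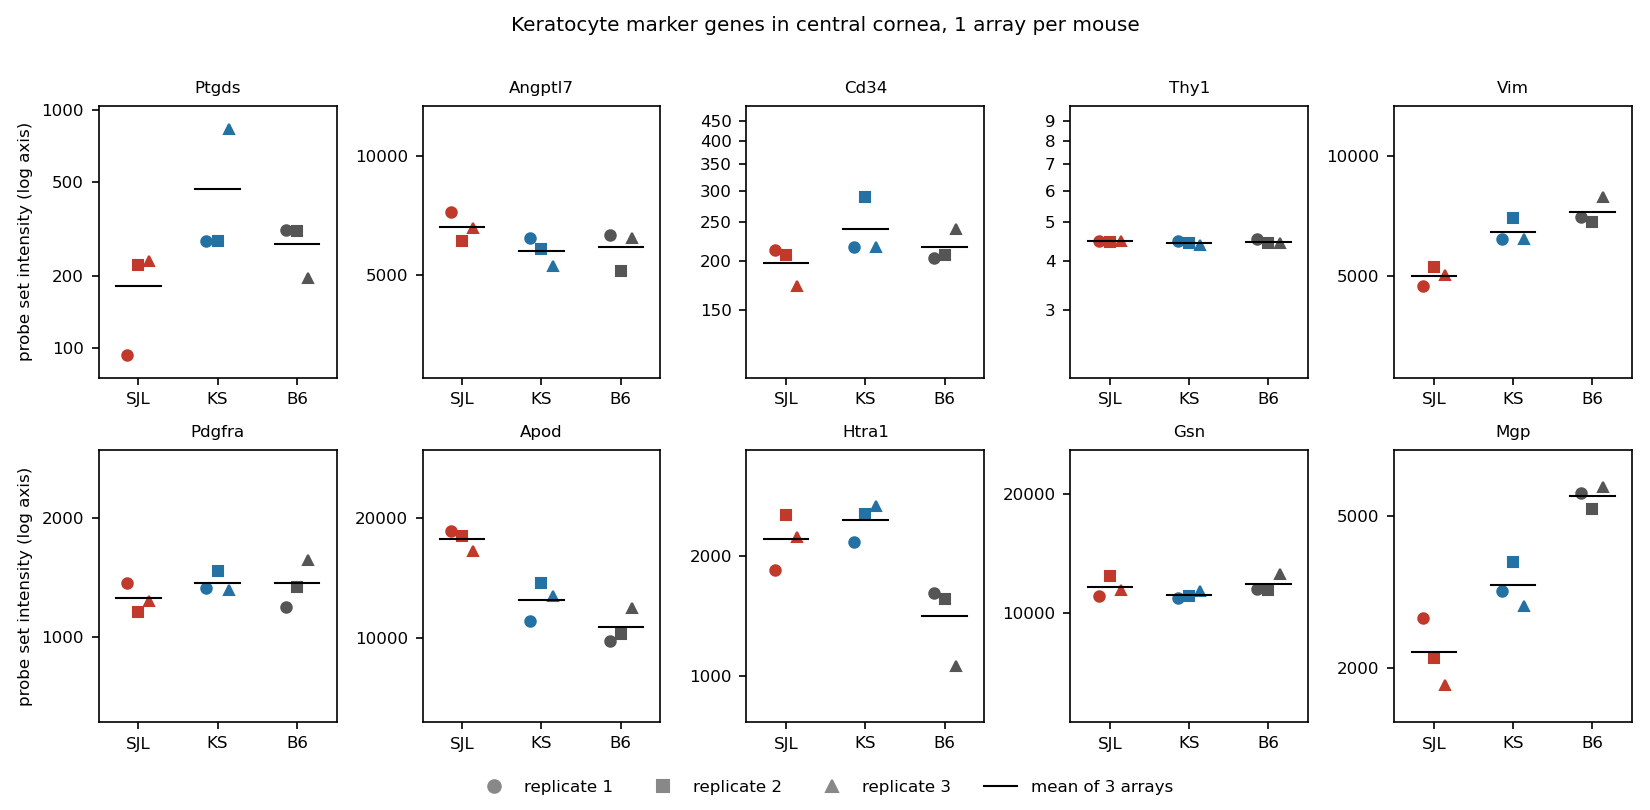
Intensity of each of the 10 keratocyte markers on the 9 arrays, on a log axis, with SJL left, KS in the middle and B6 right; each point is 1 mouse and each line the arithmetic mean of 3. The SJL points of Vim and Mgp lie below all others, those of Apod, from its brighter probe set, above all others, and the B6 points of Htra1 below all others, while Thy1 sits at the low end of the scale on every array.

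Vim, the intermediate filament of keratocytes and other mesenchymal cells, was lower in SJL than in either other strain. Its intensity was 4698, 5255 and 5008 on the SJL arrays, 6188, 6972 and 6197 on the KS arrays and 7022, 6842 and 7879 on the B6 arrays. The SJL arrays were all below the others, and the KS and B6 ranges overlapped. SJL averaged 4987 ± 279, which was 77.3% of the 6452 ± 450.2 in KS and 68.8% of the 7248 ± 554 in B6 (SD, n = 3). Limma gave a log2 difference of -0.37 against KS (95% interval -0.59 to -0.15, adjusted p = 0.0327) and of -0.54 against B6 (-0.76 to -0.32, adjusted p = 0.00589). KS and B6 differed by -0.17 (-0.39 to 0.05, adjusted p = 0.387), which did not pass the test.

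Both other probe sets of Vim were called lower in SJL as well. The brighter of them shares its annotated source sequence with the main probe set, so it is not a separate check. One had 3595, 3956 and 3746 in SJL, 4546, 6092 and 4889 in KS and 5716, 5299.6 and 5903 in B6, and the other had 1026, 825 and 944 in SJL, 1351, 1849.8 and 1403 in KS and 1574, 1549 and 1566 in B6. In neither did an SJL array reach a KS or B6 array. Their log2 differences in SJL were -0.45 and -0.71 against KS and -0.58 and -0.75 against B6. The call against B6 held without each array in turn. The call against KS ended without SJL replicate 1 (adjusted p = 0.0778), SJL replicate 3 (0.0877), KS replicate 1 (0.0639), KS replicate 2 (0.120), KS replicate 3 (0.0710) or B6 replicate 1 (0.0502). With each array centred on the other stromal genes, which moved the median of all probe sets to 0.43 in this comparison, the Vim difference of SJL against KS was 0.05.

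Gsn, gelsolin, severs actin filaments and is unusually abundant in the cornea of several vertebrates. It had 11081, 12408 and 11427 in SJL, 10927.5, 11078 and 11359.8 in KS and 11509, 11427 and 12558 in B6. The strains lay within a narrow band, although no KS array reached a B6 array. The log2 differences were 0.06 for SJL against KS (-0.13 to 0.25), -0.09 for KS against B6 (-0.28 to 0.10) and -0.02 for SJL against B6 (-0.21 to 0.17), and limma called none of them. Of its 5 other probe sets, 3 were bright and also gave no call, and 2 lay between 4.72 and 5.30 on all arrays and were not tested.

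Apod, apolipoprotein D, is a lipocalin that carries small lipids and is secreted by keratocytes. Its brighter probe set had 18588, 18000.4 and 16548 in SJL, 10981.5, 13685 and 12707 in KS and 9792, 10200.5 and 11892 in B6. Every SJL array was above every other array, and the KS and B6 ranges overlapped. By this probe set SJL averaged 17712 ± 1050.01, 1.42 times the 12458 ± 1369 of KS and 1.67 times the 10628 ± 1113 of B6 (SD, n = 3). The log2 difference was 0.51 against KS (0.25 to 0.78, limma adjusted p = 0.0189) and 0.74 against B6 (0.47 to 1.005, adjusted p = 0.00311), and KS exceeded B6 by 0.23 (-0.04 to 0.49, adjusted p = 0.330), which was not called.

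The second probe set of Apod went the other way in SJL. It had 4.30, 5.04 and 5.07 in SJL, at the low end of the scale, 460.1, 736 and 484 in KS and 379.5, 368 and 431 in B6. On this probe set the SJL arrays were far below all others, and limma called it lower by -5.24 against KS (adjusted p = 3.0e-07) and by -4.76 against B6 (5.8e-07). With the mean of both probe sets Apod was also called lower in SJL, at -2.36 and -2.01. The direction of Apod in SJL therefore rests on which probe set is read, and why they disagree was not tested. By the brighter probe set the call against B6 held without each array in turn, and the call against KS ended without SJL replicate 1 (0.0504), KS replicate 1 (0.0636) or KS replicate 3 (0.0544).

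**Figure D2:**
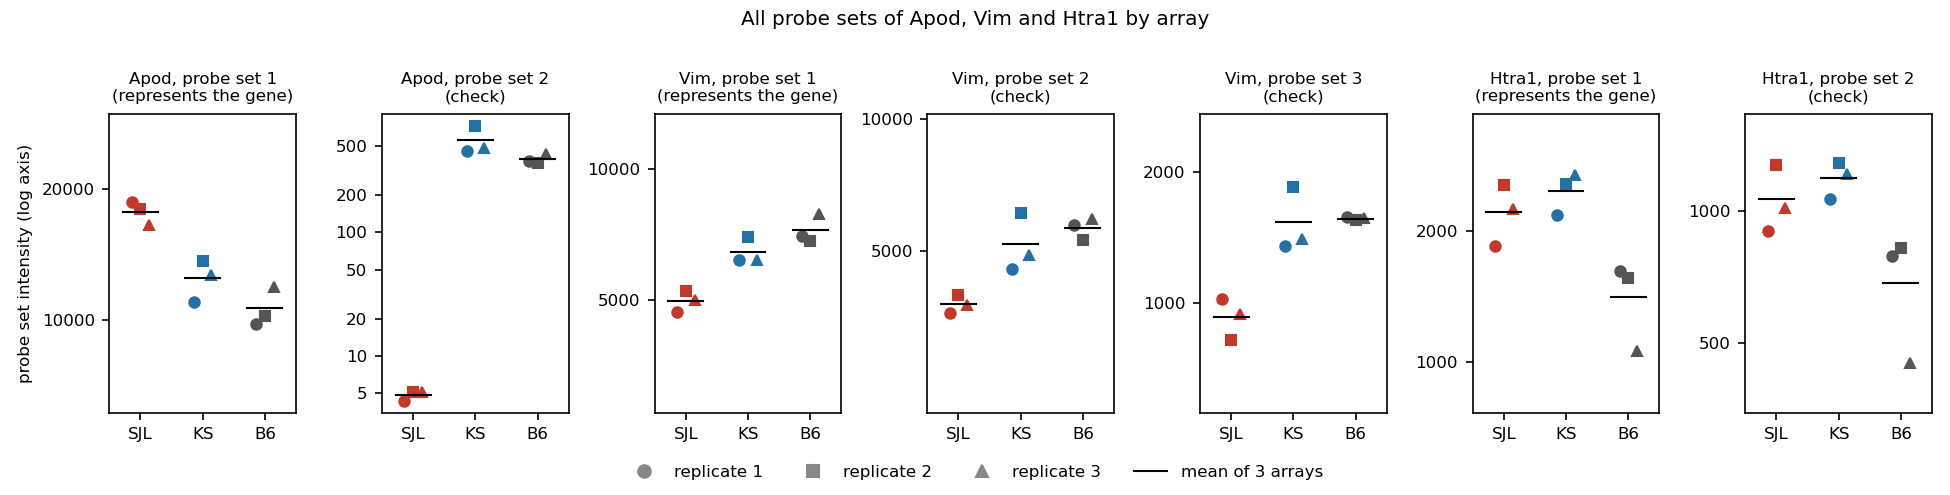
Intensity of every probe set of Apod, Vim and Htra1 on the 9 arrays, on log axes, with SJL left, KS in the middle and B6 right; points are mice and lines means of 3. All 3 probe sets of Vim put SJL lowest and both probe sets of Htra1 put B6 lowest, whereas the 2 probe sets of Apod place SJL at opposite ends.

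Ptgds, the lipocalin that also makes prostaglandin D2, had a wider range among the mice of each strain than any other tested marker, by the ratio of highest to lowest. It had 93.4, 223 and 232 in SJL, 281, 283 and 835 in KS and 313, 311 and 197 in B6. The SJL arrays lay below the KS arrays and overlapped the B6 arrays, and the value of 835 came from KS replicate 3, the array with the photoreceptor transcripts. Its log2 difference of SJL against KS was -1.21 with an interval of -2.30 to -0.12, and limma did not call it (unadjusted p = 0.0332, adjusted p = 0.134). Without KS replicate 3 the difference was -0.70 (adjusted p = 0.332). KS against B6 was 0.58 (-0.51 to 1.67) with all arrays and 0.07 without KS replicate 3, and SJL against B6 was -0.63 (-1.72 to 0.46). Ptgds is also made in the eye outside the stroma, and the part of the photoreceptor-bearing array in its level was not tested beyond leaving that array out. Its second probe set lay at 5.95 to 10.1 in SJL, 10.1 to 30.0 in KS and 9.50 to 10.2 in B6, with the highest value again on KS replicate 3.

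Angptl7, a secreted angiopoietin-like protein of the corneal stroma, was not called in any comparison. It had 7204, 6106 and 6565 in SJL, 6197, 5815 and 5266 in KS and 6313, 5118 and 6197 in B6. All 3 ranges overlapped. Its log2 difference was 0.20 for SJL against KS (-0.06 to 0.47, limma adjusted p = 0.2995), -0.03 for KS against B6 (-0.29 to 0.24) and 0.18 for SJL against B6 (-0.09 to 0.44). With each array centred on the other stromal genes it was called higher in SJL than in KS (0.62, adjusted p = 0.0250), beside a median of 0.43 for all probe sets under that centring.

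Mgp, matrix Gla protein, is a secreted inhibitor of calcification, and it was the only marker called in all 3 comparisons. It had 2698, 2123 and 1812 in SJL, 3181, 3785 and 2909.9 in KS and 5725, 5208 and 5935 in B6. No 2 strains overlapped, with SJL lowest, KS between and B6 highest. SJL averaged 2211 ± 449, KS 3292 ± 448 and B6 5622 ± 374 (SD, n = 3), so that SJL stood at 39.3% and KS at 58.6% of B6. The log2 differences were -0.58 for SJL against KS (-0.95 to -0.22, limma adjusted p = 0.0407), -0.78 for KS against B6 (-1.14 to -0.41, adjusted p = 0.0253) and -1.36 for SJL against B6 (-1.72 to -0.997, adjusted p = 0.000632).

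The difference of SJL from B6 in Mgp was called without each array in turn, at -1.51 to -1.23. The call of KS against B6 ended without KS replicate 1 (0.0764), KS replicate 3 (0.101), B6 replicate 1 (0.0816), B6 replicate 2 (0.0501) or B6 replicate 3 (0.0826), with the difference at -0.88 to -0.69. That of SJL against KS held without SJL replicate 1 and ended without any one of the other 8 arrays, at adjusted p = 0.0532 to 0.139. Mgp had 1 probe set, so no other could serve as a check.

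Htra1, a secreted serine protease that cuts matrix proteins and modulates TGF-beta signalling, was lowest in B6. It had 1844, 2548 and 2245 in SJL, 2171, 2561 and 2684 in KS and 1622, 1562 and 1059 in B6. The B6 arrays were below all others, and SJL and KS overlapped. KS averaged 2472 ± 268 and SJL 2212 ± 353, which was 1.75 and 1.56 times the 1414 ± 309 of B6 (SD, n = 3). The log2 difference was 0.82 for KS against B6 (0.39 to 1.252, limma adjusted p = 0.0417) and 0.65 for SJL against B6 (0.22 to 1.08, adjusted p = 0.0490), and SJL against KS was -0.17 (-0.60 to 0.26, adjusted p = 0.618).

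The second probe set of Htra1 had 901, 1278 and 1017 in SJL, 1066, 1288 and 1215 in KS and 788, 822 and 448 in B6, again with B6 below the rest. It gave 0.83 for KS against B6 (adjusted p = 0.0868) and 0.66 for SJL against B6 (0.0958), neither called. The lowest value of both probe sets came from B6 replicate 3, the array with the highest 3' to 5' ratio. Without that array the differences were 0.63 (adjusted p = 0.0800) and 0.46 (0.104). Leaving out any one KS or B6 array, or SJL replicate 3, also ended the call of KS against B6 (0.0557 to 0.148), and leaving out any one array other than SJL replicate 1 ended that of SJL against B6 (0.0530 to 0.131).

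The promoters of Vim, Htra1 and Apod are shown as the reference sequence at the start of markers that were called. RefSeq promoters of build GRCm38.p6 were held for 8 of the 10 markers, and Thy1 and Mgp were the others. Each run covers 250 bases before and 50 after the start of the gene, on its own strand, at chr2:13574061-13574360 (plus) for Vim, chr7:130935953-130936252 (plus) for Htra1 and chr16:31314759-31315058 (minus) for Apod. Capitals mark matches, on either strand, to the motif TATAAA of the TATA box, the CCAAT box, the GC box GGGCGG or the AP-1 motif TGANTCA.
Vim: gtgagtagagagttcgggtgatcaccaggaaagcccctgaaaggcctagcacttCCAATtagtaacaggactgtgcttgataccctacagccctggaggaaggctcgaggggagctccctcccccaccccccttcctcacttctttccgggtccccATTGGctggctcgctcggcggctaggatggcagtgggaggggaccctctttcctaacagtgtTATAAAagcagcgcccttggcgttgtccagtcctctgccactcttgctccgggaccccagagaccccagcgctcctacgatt
Htra1: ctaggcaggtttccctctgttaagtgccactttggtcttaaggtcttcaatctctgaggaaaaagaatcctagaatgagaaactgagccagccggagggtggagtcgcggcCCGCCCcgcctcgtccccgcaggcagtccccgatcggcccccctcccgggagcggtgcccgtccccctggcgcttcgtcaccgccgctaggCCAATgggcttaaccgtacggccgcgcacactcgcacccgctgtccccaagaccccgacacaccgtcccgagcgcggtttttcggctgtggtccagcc
Apod: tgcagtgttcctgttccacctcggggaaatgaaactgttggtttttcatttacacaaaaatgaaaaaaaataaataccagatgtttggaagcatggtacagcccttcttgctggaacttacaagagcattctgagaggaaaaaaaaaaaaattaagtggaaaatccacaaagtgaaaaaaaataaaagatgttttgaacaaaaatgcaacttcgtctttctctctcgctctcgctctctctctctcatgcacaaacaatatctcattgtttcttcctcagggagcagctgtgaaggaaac
Vim held 1 TATA box, at position -32 from the start, and 2 CCAAT boxes, Htra1 held 1 GC box and 1 CCAAT box, and Apod held none of the 4 motifs. Of 32851 promoters of the same length, 13.6% held TATAAA, 37.4% CCAAT, 35.7% GGGCGG and 7.81% TGANTCA. The sequence is that of the reference strain, so it shows nothing of SJL or KS, and a match is a description of the letters and not a site in use.

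Of the markers at the cell surface, none was called in any comparison. Cd34, the sialomucin of resting keratocytes, progenitor cells and vessel endothelium, had 213, 207 and 172 in SJL, 217, 289 and 217 in KS and 203, 207 and 240.4 in B6. The SJL arrays were below the KS arrays and overlapped those of B6. The log2 difference of SJL against KS was -0.27 (-0.59 to 0.05, limma adjusted p = 0.250), with 0.14 (-0.18 to 0.46) for KS against B6 and -0.13 (-0.45 to 0.19) for SJL against B6. Pecam1 and Cdh5, defining genes of vessel endothelium, lay at 4.37 to 4.69 on all arrays, and 13 of the 15 vessel and pericyte genes stayed under 16 on all 9. Kdr, a VEGF receptor, was 1 of the 2 tested and was called lower in SJL than in B6 (61.2 ± 10.01 against 145 ± 54.5), a call that ended without SJL replicate 3. The summed level of the list was 126 to 149.95 in SJL, 161 to 190.3 in KS and 175 to 281 in B6.

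Pdgfra, the PDGF receptor of mesenchymal cells, had 1368, 1158 and 1237 in SJL, 1329.9, 1473 and 1313 in KS and 1194, 1339 and 1568 in B6. These ranges overlapped throughout. No comparison was called, with differences of -0.13 (-0.40 to 0.14), 0.01 (-0.26 to 0.29) and -0.12 (-0.39 to 0.16) in SJL against KS, then KS against B6, then SJL against B6. A second, dimmer probe set had 106 to 254 in SJL, 98.3 to 132 in KS and 113 to 196 in B6 and was not called either. A further one lay at 4.81 to 6.18 and was not tested.

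Thy1, the surface glycoprotein that marks activated corneal fibroblasts, lay at 4.47 to 4.49 in SJL, 4.39 to 4.48 in KS and 4.43 to 4.54 in B6. These values are at the low end of the scale, under the filter at an intensity of 8.01, so Thy1 was not tested and no order of the strains can be read from it. Its level gives an upper bound on the signal of this 1 probe set and does not show that the transcript was absent.

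**Figure D3:**
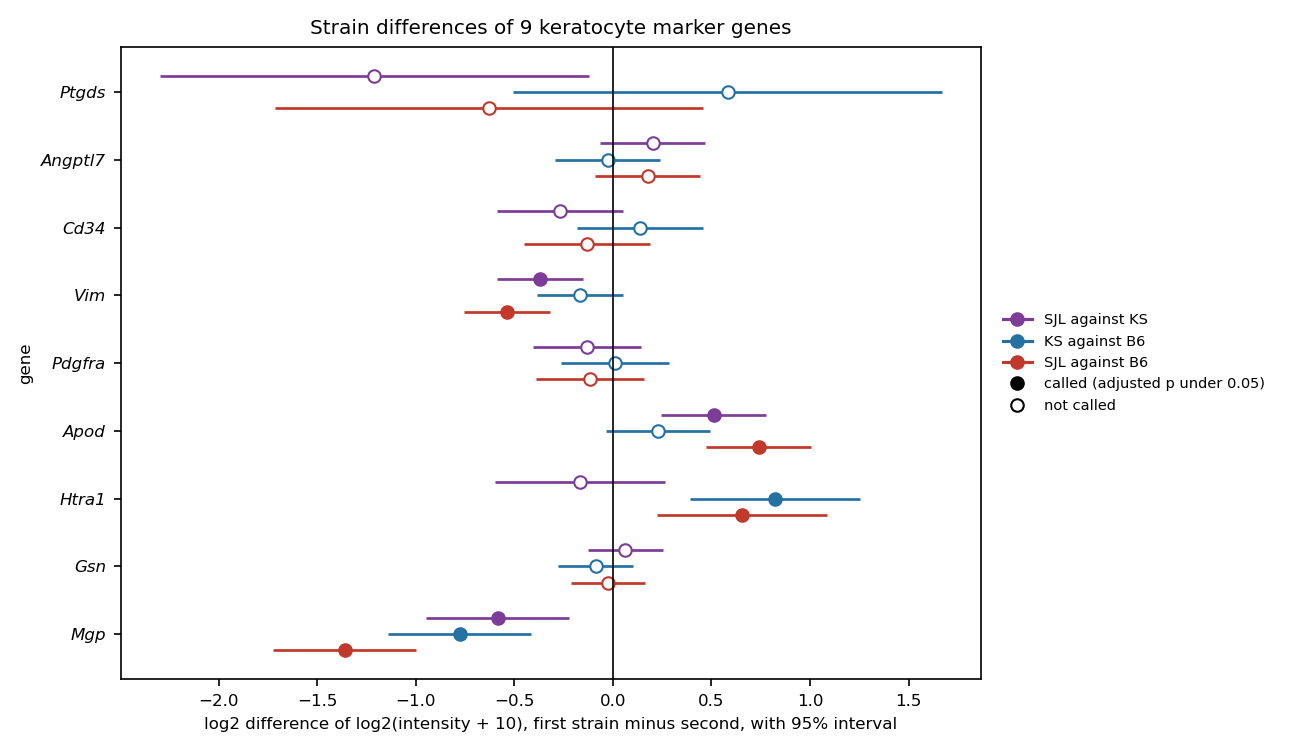
Log2 differences of the 9 tested keratocyte markers, on the log2(intensity + 10) scale with 95% intervals, for SJL against KS, then KS against B6, then SJL against B6; filled points were called by limma. Mgp lies left of 0 in all 3 comparisons, Vim in both that involve SJL, and the intervals of Angptl7, Cd34, Pdgfra and Gsn span 0 throughout.

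As a gauge of stromal content the 9 tested markers were averaged on each array, on the log2 scale and relative to the mean of the B6 arrays. SJL lay at -0.19, -0.07 and -0.15, KS at -0.04, 0.12 and 0.15 and B6 at 0.01, -0.02 and 0.01. The SJL arrays were all below the KS and B6 arrays, and KS and B6 overlapped. The means were -0.14 ± 0.06 in SJL and 0.08 ± 0.10 in KS, with a SD of 0.02 in B6, whose mean is 0 by construction (n = 3). In alternatives chosen after seeing the data, this gauge depended on single genes. Without Mgp it was 0.02 ± 0.09 in SJL and 0.19 ± 0.12 in KS, and without Ptgds -0.07 ± 0.06 in SJL and 0.02 ± 0.10 in KS; in both cases SJL overlapped KS and B6. With the mean of both Apod probe sets SJL lay at -0.44 ± 0.06, and without Apod or Htra1 at -0.25 or -0.24. KS was at -0.01 ± 0.10 without Htra1, and without KS replicate 3 the other 2 KS arrays averaged 0.04, against 0.06 without KS replicate 2 and 0.14 without KS replicate 1. The mean of 25 other stromal genes, among them Kera, Lum, Dcn and the fibrillar collagens, was -0.20 ± 0.10 in SJL and 0.17 ± 0.12 in KS, with a SD of 0.20 in B6. It kept 3 genes that stayed under 16 on all arrays, whereas the marker mean left out the dim Thy1. For that list the SJL arrays, at -0.31, -0.13 and -0.16, were below the KS arrays, at 0.04, 0.29 and 0.18, and overlapped the B6 arrays, at -0.07, -0.16 and 0.23. Without Fmod, the gene of that list furthest below B6 in SJL, the means were -0.10 ± 0.08 in SJL and 0.13 ± 0.11 in KS, and without B6 replicate 3 they were -0.09 and 0.28. The mean of 19 epithelial genes differed less, at 0.03 ± 0.03 in SJL and -0.06 ± 0.02 in KS, with a SD of 0.01 in B6. These are levels in a mixed punch, in which fewer cells of a type and less RNA per cell cannot be told apart.

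**Figure D4:**
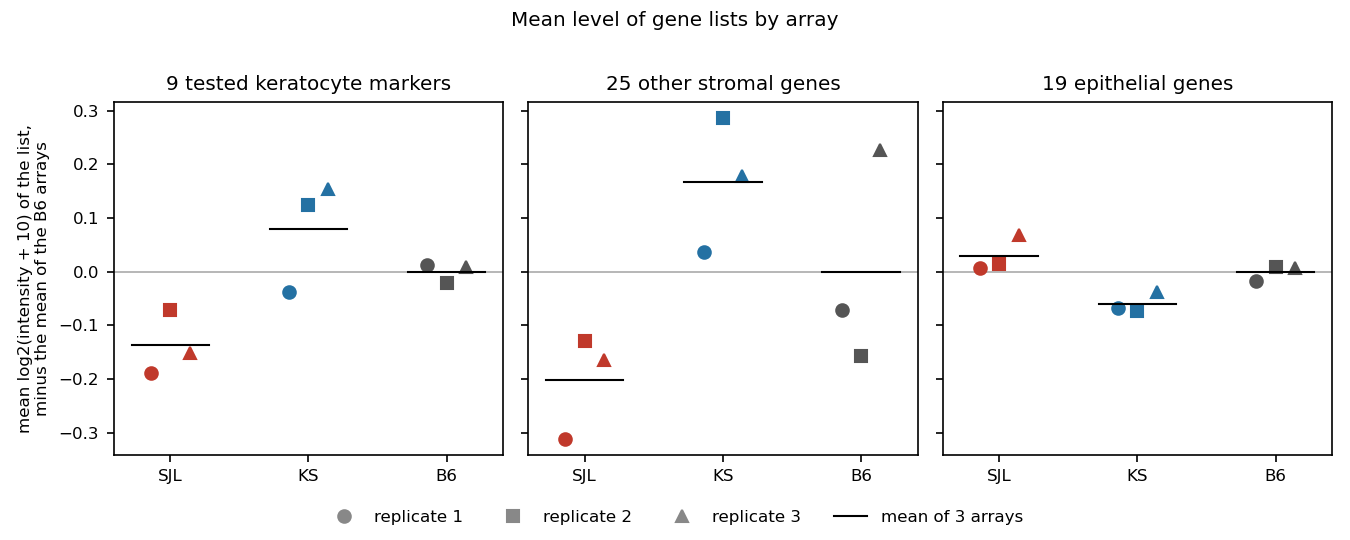
Mean log2(intensity + 10) of the 9 tested keratocyte markers, 25 other stromal genes and 19 epithelial genes on each array, minus the mean of the B6 arrays, with SJL left, KS in the middle and B6 right; points are mice and lines means of 3. SJL lies below KS for the markers and the other stromal genes, and the epithelial genes stay between -0.07 and 0.07 on all arrays.

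Most of the other stromal genes did not pass the test in a given comparison. Of 22 tested, 0 were called higher and 4 lower in SJL against KS (median -0.24), where 6.8% and 8.08% of all genes were. In KS against B6, 2 were called higher and 1 lower (0.14), beside 3.4% and 2.87% of all genes. In SJL against B6, 1 was called higher and 3 lower (-0.11), beside 8.39% and 7.68%. Fmod, the collagen-binding proteoglycan fibromodulin, averaged 449 ± 183 in SJL and 5907 ± 1474 in KS, with 2810 ± 969 in B6 (SD, n = 3). Serping1, the C1 inhibitor, averaged 1545 ± 90.4 in SJL mice, 3409 ± 528 in KS mice and 3041 ± 264 in B6, and like Fmod it was called lower in SJL against both strains under all 24 alternatives. Cd248, endosialin, averaged 31.3 ± 12.99 in SJL mice, 76.1 ± 6.20 in KS mice and 26.8 ± 12.6 in B6; SJL was called lower than KS, which ended without SJL replicate 1 or 3 or any one KS replicate, and KS higher than B6, which ended without any one KS replicate, B6 replicate 1 or B6 replicate 2. Both calls of Cd248 also ended with no filter and with the replicate block. Fbln1, the matrix protein fibulin 1, was higher in KS than in B6, at 492 ± 12.3 against 244 ± 33.6 (0.99, limma adjusted p = 0.00203). Aebp1, a collagen-binding protein, was lower than in B6 in both, at 590.2 ± 101 in SJL and 610.1 ± 101 in KS against 1105 ± 139 in B6; its call in KS ended without KS replicate 1 or 3 or any one B6 replicate (0.0501 to 0.0799), and with no filter. Kera, Lum and Col1a1, the main chain of stromal collagen, were not called in any comparison. Dcn, decorin, was lower in SJL than in KS (-0.37, adjusted p = 0.0168), a call that ended without SJL replicate 3, KS replicate 2 or KS replicate 3 and with centring on stromal genes, where the sign turned.

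Genes of the activated fibroblast were called in both directions in SJL, and only higher in KS against B6. Of 18 tested, 2 were called higher and 4 lower in SJL against KS, where 6.8% and 8.08% of all genes were. In KS against B6, 4 were called higher and 0 lower, beside 3.4% and 2.87% of all genes. In SJL against B6, 3 were called higher and 2 lower, beside 8.39% and 7.68%. The medians were -0.25, 0.31 and 0.01. The mean log2 level of all 21 genes of the list was 7.46 to 7.80 in SJL, 7.85 to 8.07 in KS and 7.52 to 7.695 in B6. Their summed level was highest in SJL, at 33608 to 35895, against 30437 to 32614 in KS and 30929 to 31243 in B6. Col3a1, a collagen of early repair, had 12.0, 21.4 and 15.5 in SJL, 85.4, 119 and 81.5 in KS and 10.98, 7.45 and 46.3 in B6. KS was above both other strains on every array, by 1.93 over B6 (adjusted p = 0.0267), a call that ended without SJL replicate 3, any one KS replicate, B6 replicate 1 or B6 replicate 2. SJL was lower than KS by -2.00 (0.0104), called without each array in turn but not with no filter on dim probe sets. Myl9, a myosin light chain of contractile cells, averaged 132 ± 44.1 in SJL mice, 429 ± 121 in KS mice and 186 ± 23.2 in B6. It was called lower in SJL than in KS (-1.64, adjusted p = 0.00273) and higher in KS than in B6 (1.14, 0.0345), the second call ending without SJL replicate 1 or any one KS or B6 replicate. Fn1, which encodes fibronectin, was called higher in SJL than in B6, with 7052 ± 568 against 3796 ± 592 (0.90, limma adjusted p = 0.00158). On the KS arrays Fn1 had 3367, 3195 and 3013, below every SJL array, the lowest of which was at 6418. Thbs1, thrombospondin 1, was lower in SJL, at 644 ± 218 against 1485 ± 203 in KS and 1198 ± 161 in B6; the call against B6 ended without SJL replicate 3, KS replicate 1, B6 replicate 1 or B6 replicate 2. Tgfb1 was higher in SJL than in B6 (113 ± 33.6 against 53.0 ± 1.15, adjusted p = 0.00811) and Tgfb2 higher in KS than in B6 (288 ± 57.3 against 135 ± 7.45, 0.0319). The call of Tgfb2 ended without KS replicate 2 or 3 or any one B6 replicate. With no filter the calls of Col3a1, Myl9 and Tgfb2 in KS against B6 and of Thbs1 in SJL against B6 ended as well. Acta2, the actin that defines the myofibroblast and named after its values were seen, had 47.2, 205 and 46.1 in SJL, 126, 123 and 80.0 in KS and 70.8, 67.1 and 83.1 in B6 and was not called.

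Ligands and relatives of the markers were also compared, with 15 of 23 tested. There were 2 called higher and 2 lower in SJL against KS, beside 6.8% and 8.08% of all genes tested. In KS against B6 there were 2 higher and 0 lower, beside 3.4% and 2.87%. In SJL against B6 there were 3 higher and 1 lower, beside 8.39% and 7.68%. Pdgfc, a ligand of PDGF receptor alpha, had 189.97, 208 and 317 in SJL, 282, 252 and 153 in KS and 74.7, 61.1 and 67.5 in B6. Both strains lay above B6 on every array, by 1.64 in SJL (adjusted p = 0.00254) and 1.58 in KS (0.00692), while Pdgfra itself was not called. Pdgfd, a ligand of PDGF receptor beta, averaged 339.5 ± 104 in SJL mice, 694 ± 106 in KS mice and 350.1 ± 54.4 in B6. It was called lower in SJL than in KS, a call that ended without KS replicate 1 or 2, with no filter and with centring on stromal genes. It was called higher in KS than in B6 (limma adjusted p = 0.0495), which held under 9 of 24 alternatives and, of the single arrays, only without SJL replicate 2 or 3. Htra3, a relative of Htra1, averaged 228 ± 39.1 in SJL mice, 32.6 ± 3.17 in KS mice and 34.4 ± 23.3 in B6, so it was called higher in SJL against both (2.47 and 2.53). Htra2, the mitochondrial member of that family, averaged 4866 ± 558 in SJL mice, 3211 ± 322 in KS mice and 2812 ± 56.4 in B6 and was called higher in SJL against both as well. Each of these calls of Htra2 and Htra3 held without any single array.

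Markers of other cells in or near the punch moved as follows. Among all genes tested, the shares called higher and lower were 6.8% and 8.08% in SJL against KS. They were 3.4% and 2.87% in KS against B6, and 8.39% and 7.68% in SJL against B6. Of 9 corneal endothelial genes tested, 3 were called lower and 0 higher in SJL against KS, with a median log2 difference of -0.40. In SJL against B6, 2 were called lower and 0 higher (-0.21), and in KS against B6 0 were called (0.05). The summed level of the list was 22284 to 25224 in SJL, 27598 to 31728 in KS and 25126 to 30485 in B6. Atp1b1 had 2253 to 2941 in SJL and 5118 to 5981 in KS, whereas Col8a2 had 3358 to 3592 and 3216 to 3518. Vim, which endothelial cells also make, was lower in SJL too, but differed by -0.17 in KS against B6. Slc16a1, a lactate transporter called lower in SJL against both, averaged 252 ± 7.76 in SJL mice, 675 ± 17.5 in KS mice and 567 ± 92.3 in B6. Of 9 leukocyte genes tested, 1 was higher and 1 lower in SJL against KS and 1 higher and 2 lower in SJL against B6, and Ptprc, Cd3e and Cd3g reached at most 5.37 on any array. Cd74, the invariant chain of antigen presentation, averaged 418 ± 28.01 in SJL mice, 695 ± 157 in KS mice and 872 ± 18.2 in B6. Itgam went the other way, with 73.9, 43.4 and 68.0 in SJL, 25.9, 22.9 and 19.3 in KS and 22.1, 13.5 and 20.2 in B6. It was called higher in SJL against KS (1.11) and B6 (1.31), and both calls held without each array in turn. Of 10 nerve and Schwann cell genes, 4 were tested and Ngfr, a neurotrophin receptor, was lower in SJL, at 145 ± 24.6 against 658 ± 183 in KS and 594 ± 56.8 in B6. In the lens list 7 of 8 genes, with Cryaa at 4.50 or lower, stayed under 16 on all arrays, and the filament protein Bfsp1 was called higher in SJL, at 72.6 ± 34.2 against 23.9 ± 1.72 in KS and 23.6 ± 1.54 in B6. Those calls ended without SJL replicate 2 or 3 or, in each comparison, without any one array of the other strain. Of 3 inner retina and pigment epithelium genes tested, Best1 and Rbpms were called lower in SJL against both, with a summed level of that list of 144 to 210.4 in SJL, 347 to 651 in KS and 402 to 610.3 in B6. The call of Rbpms against KS ended without SJL replicate 2 or 3 or KS replicate 2 or 3, with no filter, with centring on stromal genes, with the replicate block, with only SJL and KS fitted and with both KS replicate 3 and B6 replicate 3 left out. Of 19 epithelial genes 2 were called higher in SJL against each other strain, Itgb4 in both. Of 8 corneal crystallin genes, 2 were called lower in SJL against KS, Aldh1a1 (-0.40) and Cryab (-0.32). The call of Cryab ended without any one array other than KS replicate 3, and that of Aldh1a1 without SJL replicate 3 or KS replicate 1. Against B6, Aldh2 was called higher in SJL (0.89) and KS (0.65), and Aldh1a1 lower in SJL (-0.49). None of the 7 photoreceptor genes or the 2 genes of pigment cells and iris muscle tested was called by limma. Of the photoreceptor genes, Gnat1, Pde6g, Rcvrn and Nrl had 2108, 720, 456 and 261 on KS replicate 3. On every other array these 4 had at most 9.39. With such signal on 1 of 3 KS arrays, the lack of a call cannot compare the strains. Tnmd and Fmo2 were the 2 genes of 9 for sclera, tendon-like tissue and chamber angle that passed 16, and the summed level of that list was 134 to 175 in SJL, 165 to 379 in KS and 72.4 to 153 in B6. The part of these cells in the marker differences was not tested.

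The genes around each marker on its chromosome were counted, with the 10 nearest tested genes on either side, from the order of a RefSeq table. Around Mgp on chromosome 6, 4 of 20 neighbours were called in SJL against KS, 10 of 20 in KS against B6 and 13 of 20 in SJL against B6, the last 2 comparisons sharing the B6 arrays. For the other 9 markers between 0 and 5 neighbours were called in each comparison, of 12 for Cd34 and 20 for the rest. The largest of these shares were those of Cd34, at 41.7% in SJL against KS and 33.3% in SJL against B6. Apod had 20% in SJL against KS, the same as Mgp. Over all genes tested, 6.8% were called higher and 8.08% lower in SJL against KS. The shares were 3.4% and 2.87% in KS against B6, and 8.39% and 7.68% in SJL against B6. Near Mgp, Pbp2 lay at 4.98 ± 0.03 in SJL and 4.96 ± 0.02 in KS against 2707 ± 811 in B6, and Plbd1, a lysosomal hydrolase, at 1339.9 ± 259.7 in SJL and 1259 ± 121 in KS against 92.1 ± 22.4 in B6. The receptor gene Gprc5a was called lower in SJL than in KS, with a log2 difference of -0.85. Relative to B6, Gprc5a was called lower in both strains, at -0.62 for KS and -1.47 for SJL. Its order of strains was thus that of Mgp, with SJL lowest and B6 highest. The tested genes between Plbd1 and Mgp (H2aj, Wbp11 and Art4) were not called in any comparison. On the other side of Mgp, the next tested gene, Erp27, was called lower than in B6 in KS (-1.14) and SJL (-1.02). Against B6, Eps8 was also called lower (-1.41 in KS and -1.21 in SJL) and Rerg higher (0.70 and 0.63). Arhgdib was called higher in SJL against KS (1.38) and B6 (1.58).

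**Figure D5:**
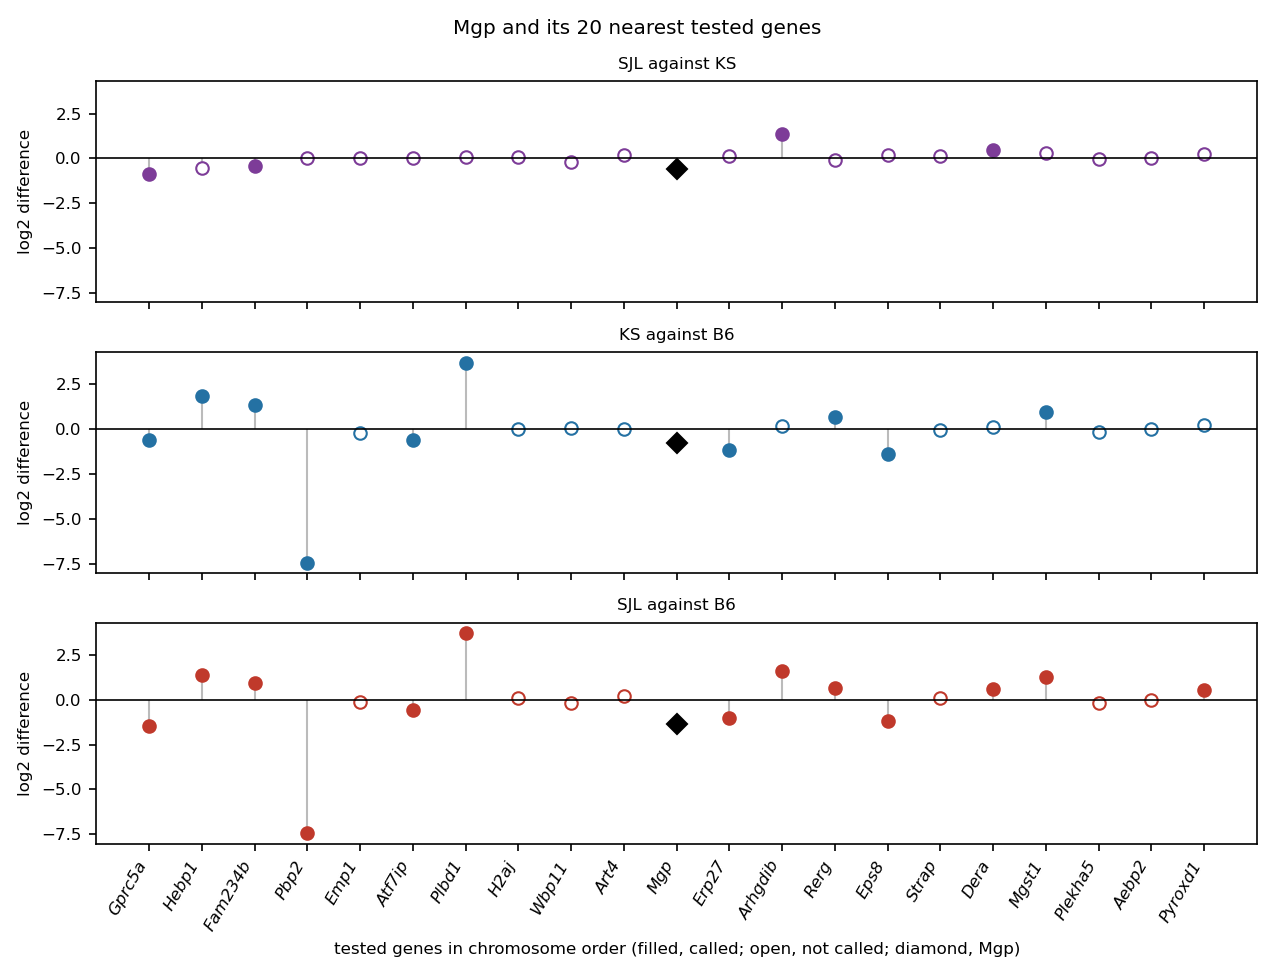
Log2 differences of Mgp (diamond) and its 20 nearest tested genes in chromosome order, for SJL against KS, then KS against B6, then SJL against B6; filled points were called by limma and open points were not. Pbp2 and Plbd1 stand far from 0 in both comparisons with B6 and near 0 in SJL against KS.

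The genes whose pattern over the 9 arrays was most like that of a called marker were found from the root mean square difference of log2 values centred on each gene's mean. For Vim these were Susd4 (0.05), Asah1 (0.06) and Rbp2 (0.07), where Vim itself varied by 0.24 about its mean. Susd4 averaged 744 ± 44.1 in SJL mice, 937 ± 15.2 in KS mice and 1091 ± 101 in B6. For Apod they were Adh6b (0.09), Ahr (0.09) and Exoc6 (0.10), and Adh6b averaged 2878 ± 210.5 in SJL mice, 2019.7 ± 61.3 in KS mice and 1718 ± 145 in B6. For Htra1 they were Cst6 (0.11), Mllt3 (0.13) and Zkscan14 (0.14), with Cst6 at 2501 ± 428 in SJL, 3034 ± 234 in KS and 1772 ± 287 in B6. For Mgp they were Mical2 (0.14), H2-Ab1 (0.16) and Amdhd2 (0.18), with Mical2 at 57.3 ± 10.9 in SJL, 82.1 ± 19.6 in KS and 164 ± 20.1 in B6. None of these 12 genes lies on the chromosome of the marker it resembles.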

How the data were processed

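RNA from 9 mice was measured on 1 Affymetrix array each. The values are the deposited linear intensities of 45101 probe sets; the sources used here do not give how the authors summarised, background-corrected and scaled them. They hold no detection calls, and the number of arrays limits the precision. Of 45037 probe sets that were not controls, 34945 had 1 symbol in the platform annotation, 932 several and 9160 none. Values were taken as log2(intensity + 10), which understates the change of dim probe sets, and the 22519 probe sets with a mean at or above the median were tested. Strain means over all 9 arrays were fitted with limma 3.58.1 in R 4.3.3, with two-sided moderated tests, Benjamini-Hochberg adjustment over all probe sets tested and 6 residual degrees of freedom before moderation. An exact permutation test of 3 against 3 arrays cannot go below 0.1, so none is given. The procedure was tested on simulated data. Samples are separate mice, and correlations of whole arrays were 0.982 to 0.994 within and 0.955 to 0.980 between strains.

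The members and lists were chosen with earlier results of these data known. Besides the markers and Krt12, Kera, Lum, Dcn and Col1a1, up to 3 called genes of largest difference per list and comparison, the 3 genes most like each marker called by the F-test and up to 2 called neighbours per marker and comparison were open to naming; those near markers other than Mgp are given as counts, and other genes were named after their values were seen. Alternatives changed the filter, scaling, pseudocount, variance model, array weights, replicate block, strains fitted, choice of probe set and arrays included.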

Additional observations from a re-analysis of the deposited data

How the results depend on the processing

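Mgp in SJL against B6 was called under all 24 alternatives, and Vim in that comparison under 23. Apod kept a call in SJL under 24 alternatives against B6 and 21 against KS, but with the mean of all probe sets it was lower, at -2.01 and -2.36. Mgp was called in KS against B6 under 17 and in SJL against KS under 11 of 24, Vim in SJL against KS under 15, and Htra1 against B6 under 11 in KS and 7 in SJL. Except for the construction of an alternative (fewer probe sets or arrays), the cause of each change was not tested.

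With all arrays 3489 probe sets were called in SJL against KS (45.0% of them higher), 1286 in KS against B6 (50.9%), and 3605 for SJL against B6 (49.5%). With no filter KS against B6 had 838 called and 0 markers. A filter at the 70th percentile left 2101, 742 and 2156 called and 2659 by the F-test. Centring on stromal genes gave 8864 in SJL against KS and 6835 by the F-test, 1 marker in KS against B6, and shares of higher calls of 90.7%, 26.1% and 73.5%; the median of all probe sets was then 0.43, -0.17 and 0.25. Centring on epithelial genes gave 32.9% higher in SJL against KS and 61.7% for KS against B6. Array weights, whose estimation stopped before convergence, gave 9450, 2232 and 7364 called, 10068 by the F-test and 6 markers in SJL against KS, with Ptgds at -1.18, Angptl7 at 0.24 and Cd34 at -0.39 now called. Fitting only the strains compared, or choosing plain probe sets, left 1 marker called in KS against B6. The replicate numbers did not pair the mice (correlations of deviations from -0.27 to 0.26), and with the replicate block 1 marker was called in SJL against KS, and 1 for KS against B6.

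Under stromal centring the sign turned in SJL against KS for Cd34 (0.15), Vim (0.0490), Pdgfra (0.29) and Htra1 (0.25), in KS against B6 for Cd34 (-0.0520) and Pdgfra (-0.18), and in SJL against B6 for Cd34 (0.10), Pdgfra (0.11) and Gsn (0.21). There Mgp in SJL against KS was -0.16, Vim in SJL against B6 -0.31 and Htra1 in KS against B6 0.63, none called, and Angptl7 (0.62) and Gsn (0.48) were called higher in SJL than in KS. Epithelial centring turned Gsn in SJL against KS (-0.0252) and Angptl7 in KS against B6 (0.0337), and median centring Pdgfra in KS against B6 (-0.0131). The mean of all probe sets turned Pdgfra in SJL against KS (0.165), for KS against B6 (-0.0873) and for SJL against B6 (0.0774) and Gsn in SJL against B6 (0.00676). Plain probe sets turned Gsn in KS against B6 (0.0140) and SJL against B6 (0.0338).

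Leaving out each array in turn gave 0 to 2 markers in SJL against KS, 0 to 2 in KS against B6 and 3 to 4 in SJL against B6, and 2343 to 3662, 748 to 1449 and 2545 to 3694 probe sets. The sign turned within those ranges for Gsn in SJL against B6 (-0.0710 to 0.0196), Pdgfra in KS against B6 (-0.0799 to 0.12) and Angptl7 in KS against B6 (-0.12 to 0.0371). Leaving out both KS replicate 3 and B6 replicate 3, chosen after seeing the data, left 1 marker in SJL against KS and 0 for KS against B6, 633 probe sets in KS against B6, 2363 in SJL against B6 and 2862 by the F-test, with Ptgds at -0.14 and Angptl7 at 0.0786 in KS against B6 and Gsn at 0.0196 in SJL against B6. The mean of the tested markers in SJL relative to B6, -0.14 with all of them, was 0.0165 without Mgp, -0.0749 without Ptgds, -0.25 without Apod, -0.24 without Htra1 and -0.44 with the mean of both Apod probe sets, and that in KS, 0.0803 with all, was 0.188 without Mgp. The mean of the other stromal genes in SJL was -0.0993 without Fmod and -0.28 to -0.0881 with each array left out. Thy1 and the dim probe sets give only an upper bound, and 3 mice a strain limit every other comparison.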
